A study of Homo sapiens with 12 samples.

Results

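The genes described here are EGFR, its relatives ERBB2 and ERBB3, 5 ligands of the family (HBEGF, AREG, EREG, TGFA and BTC), the receptor tyrosine kinase MET and the inhibitor ERRFI1. They were taken by gene symbol, and all 10 were found among the 16426 genes that both deposited tables hold. RNA sequencing covered 12 libraries of HCC827 and NCI-H1975, which are established lines of human lung cancer of the non-small cell type, both with an activating mutation of EGFR. One experiment used the compound 18E at 2.5 and 5 µM (24 h stated), with DMSO as the control. The other used the siRNAs siDYN-1 and siDYN-2 (48 h stated), with siCON as the control. There was 1 library per line and treatment, so the 2 lines stand in for replicates. No label says that cultures were repeated, and p-values measure only the disagreement between these libraries.

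ERBB receptors are cell surface tyrosine kinases that pair when an EGF-like ligand binds outside the cell, and they then signal through RAS and ERK and through PI3K and AKT. The ligands are made as membrane-bound precursors and are shed by ADAM proteases. In lung adenocarcinoma with mutated EGFR the kinase is active without ligand, ERBB3 is a main route to PI3K, and MET is known as a bypass route when EGFR is inhibited.

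Levels are FPKM, fragments per kilobase of a transcript, scaled by library. Changes are differences of log2(FPKM + 1), a scale that understates the change of low genes, and a fitted change is given with its standard error (SE). A gene passed the test when its limma p, adjusted over all genes tested by the Benjamini-Hochberg method, was under 0.05. All 10 members passed the filter on low values in both tables (1 FPKM in at least 2 of 6 libraries), which left 11953 genes in the 18E table, and 11718 in that of the siRNAs. Total FPKM ran from 486409 to 685680 per library, and read depth is unknown. DYNC1LI1, the gene of a dynein light intermediate chain, stood at 7.49% to 21.5% of siCON in the 4 siDYN libraries. The 6 epithelial markers listed summed to 3697 to 9230 FPKM in the 18E table, and to 5658 to 9897 FPKM in that of the siRNAs. Blood, endothelial and fibroblast markers summed to at most 11.2 FPKM in any library, and CD14, a monocyte marker, held up to 10.65 FPKM of that. None of the other markers of these cells exceeded 1.47 FPKM.

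The ligand genes EREG, AREG and BTC lie in 1 stretch of chromosome 4 (GRCh38, GENCODE 29). EREG (74365143 to 74388751, plus strand) ends 56.4 kb before AREG (74445134 to 74455009, plus strand), and BTC (74744759 to 74794686, minus strand) follows after a further 289.8 kb. HBEGF is on chromosome 5 (140332843 to 140346631, minus strand), and TGFA on chromosome 2 (70447280 to 70554193, minus strand). EGFR (55019021 to 55211628) and MET (116672390 to 116798386) are both on the plus strand of chromosome 7, ERBB2 on that of chromosome 17 (39687914 to 39730426) and ERBB3 on that of chromosome 12 (56076799 to 56103505). ERRFI1 is on the minus strand of chromosome 1 (8004404 to 8026308), and all 10 are annotated as protein-coding. The 250 bases before the RefSeq start sites of HBEGF, EREG and AREG (GRCh38.p14) are shown. They were chosen because HBEGF was higher and EREG lower in both lines at 5 µM 18E. AREG, the neighbour of EREG, was higher in NCI-H1975 and lower in HCC827 at that dose. No fitted 18E change of these genes passed the adjusted test. Each stretch is printed 5′ to 3′ on its own strand, and capitals mark matches to the motifs searched other than GC boxes.
HBEGF, chr5:140346604-140346853, minus strand: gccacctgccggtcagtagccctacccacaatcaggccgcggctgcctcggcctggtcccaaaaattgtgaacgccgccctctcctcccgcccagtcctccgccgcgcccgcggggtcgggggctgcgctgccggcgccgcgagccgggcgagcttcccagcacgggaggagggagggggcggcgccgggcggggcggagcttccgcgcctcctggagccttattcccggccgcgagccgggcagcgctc
EREG, chr4:74364895-74365144, plus strand: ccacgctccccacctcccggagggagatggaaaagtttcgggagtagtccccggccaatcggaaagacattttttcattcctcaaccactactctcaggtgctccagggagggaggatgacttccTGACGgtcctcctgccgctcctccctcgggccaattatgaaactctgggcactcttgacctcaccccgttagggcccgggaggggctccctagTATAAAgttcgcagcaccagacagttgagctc
AREG, chr4:74444886-74445135, plus strand: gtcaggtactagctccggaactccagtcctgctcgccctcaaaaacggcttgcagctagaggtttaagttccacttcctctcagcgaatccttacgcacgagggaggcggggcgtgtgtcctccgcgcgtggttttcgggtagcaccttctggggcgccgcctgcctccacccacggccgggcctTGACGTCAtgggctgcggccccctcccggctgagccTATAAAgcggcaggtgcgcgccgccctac

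AREG held the full cAMP response element TGACGTCA, first base at -65 from the start site, and a TATA box (TATAAA) at -29. EREG held only the shorter response element core TGACG, first base at -125, and a TATA box at -32. HBEGF held neither, and had 5 GC boxes (GGGCGG), while AREG had 1 (first base at -9) and EREG had 0. Over the 35116 RefSeq promoter windows of 300 bases, searched on both strands, 1.85% held TGACGTCA, 24.6% TGACG (which lies within the former), 11.5% TATAAA and 44.95% GGGCGG. The AP-1 site TGANTCA (7.71% of windows), the amino acid response element TGATGNAA (3.62%), the heat shock element GAANNTTC (6.77%), the E-box CACGTG (7.26%) and the NRF2 core TGACNNNGC (13.3%) matched none of the 3 windows. RefSeq windows were found for 9 of the 10 members, ERBB3 being the exception, and EGFR and TGFA had 2 each. These matches are letters in a window and were not tested as binding sites.

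The first comparison was between the lines. HCC827, a line known for amplified EGFR, had more mRNA for EGFR and for 4 of the 5 ligands than NCI-H1975, while ERBB2 and ERBB3 were close. With DMSO, EGFR stood at 615.58 FPKM in HCC827 and 25.35 FPKM in NCI-H1975, a 24.3-fold ratio. With siCON the levels were 221.5 and 13.6 FPKM, a 16.3-fold ratio. The order of levels in HCC827 with DMSO was EGFR, MET (233.9), AREG (180.29), EREG (134.24), ERRFI1 (116.43), ERBB2 (45.23), TGFA (34.66), ERBB3 (25.36), BTC (8.12) and HBEGF (1.56 FPKM). In NCI-H1975 it was MET (87.17), ERRFI1 (72.55), ERBB2 (30.34), EGFR (25.35), ERBB3 (20.96), AREG (20.62), TGFA (9.75), EREG (6.98), HBEGF (2.32) and BTC (1.13 FPKM). EGFR thus led all members in one line and came after MET, ERRFI1 and ERBB2 in the other. With a single library each, neighbours in these orders carry no error of their own.

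**Figure D1:**
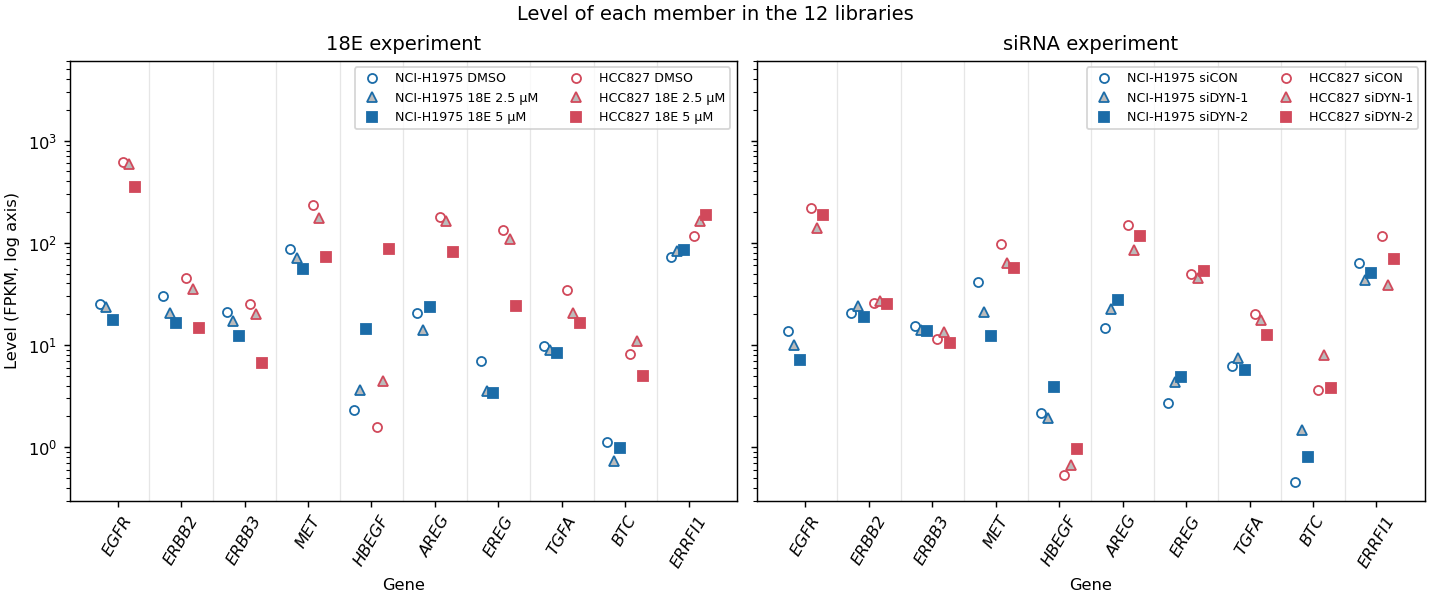
FPKM (log axis) of the 10 members in the 6 libraries of the 18E experiment (left) and the 6 of the siRNA experiment (right), with 1 point per library, blue for NCI-H1975 and red for HCC827. EGFR, AREG, EREG, TGFA and BTC are higher in every HCC827 library than in any NCI-H1975 library of the same experiment, while HBEGF in the 18E experiment runs from 1.56 to 86.1 FPKM in HCC827.

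The lines were tested over all 6 libraries of a table, with treatment in the fit and the difference taken as NCI-H1975 minus HCC827. The differently treated libraries of a line stand in there for its replicates. BTC in both tables and HBEGF with the siRNAs reached 1 FPKM in 2 libraries only in the line where they were higher, so they are left out of these counts. With the 18E libraries, 6 of the 9 other members were higher in HCC827 past the threshold, against 21.2% of all genes tested. None of the 9 was higher in NCI-H1975, against 30.7% of all genes. With the siRNA libraries, 5 of the 8 others were higher in HCC827, against 18.6% of all genes, and none in NCI-H1975, against 28.3%. The shares of all genes were not restricted in this way and include genes that met the filter through 1 line, so the counts and shares are not strictly alike. The median difference over all genes tested was 0.10 for the 18E libraries and 0.12 for those of the siRNAs.

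Among the receptors, EGFR differed by -4.47 ± 0.13 in the 18E table (adjusted p = 0.000106) and by -4.04 ± 0.18 for the siRNAs (adjusted p = 1.78e-05). MET, the receptor of hepatocyte growth factor, differed by -1.03 ± 0.22 and -1.63 ± 0.23, and passed in both. ERBB2, the family member without a known ligand, differed by -0.38 ± 0.20 and -0.30 ± 0.14 and passed in neither, though it passed in the 18E table (-0.66) without the 5 µM library of either line. ERBB3, which binds neuregulins and has little kinase activity of its own, differed by 0.10 ± 0.23 (-0.02 with equal FPKM totals) and 0.27 ± 0.15, and also passed in neither.

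Of the ligands, EREG (epiregulin, which binds EGFR and ERBB4) had the widest gap, -3.73 ± 0.39 in the 18E table and -3.37 ± 0.17 for the siRNAs. AREG (amphiregulin, an EGFR ligand of low affinity) differed by -2.76 ± 0.33 and -2.39 ± 0.29. TGFA (transforming growth factor alpha) differed by -1.25 ± 0.19 and -1.22 ± 0.20. These 3 passed in both tables. BTC (betacellulin) met the filter on low values only through HCC827, so its differences of -2.16 ± 0.25 and -1.64 ± 0.26 are given as a description. HBEGF, the heparin-binding ligand, differed by 1.06 ± 0.21 in the siRNA table, toward NCI-H1975. Its HCC827 level there never reached 1 FPKM, and it met the filter only through NCI-H1975, so this too is a description. In the 18E table its difference was -0.79 ± 0.54 and did not pass, except without the DMSO library of either line (-1.37). Without the 5 µM library of either line it was 0.07. ERRFI1 (MIG6), which binds the EGFR kinase and blocks it, differed by -0.93 ± 0.14 in the 18E table and passed, and by -0.38 ± 0.25 in the siRNA table and did not, except without HCC827 siDYN-1 (-0.68).

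At 5 µM 18E the ligands parted. HBEGF was higher in both lines, EREG was lower in both, and the receptor genes were all lower in both. None of these changes passed the adjusted test. Over all genes 1 of 11953 passed at 5 µM (0.00837%), ADM, named here after its values were seen, and 0 of the 10 members did. At an unadjusted limma p under 0.05 there were 6 members lower (EGFR, ERBB2, ERBB3, EREG, TGFA and MET), against 16.8% of all genes lower by that rule. The same rule gave 2 members higher (HBEGF and ERRFI1), against 10.0% of all genes. In direction alone, 7 members were lower in both lines (the same 6 and BTC), against 40.8% of genes, and 2 were higher in both, against 25.5%. The members' median fitted change was -0.64, beside -0.09 for all genes.

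**Figure D2:**
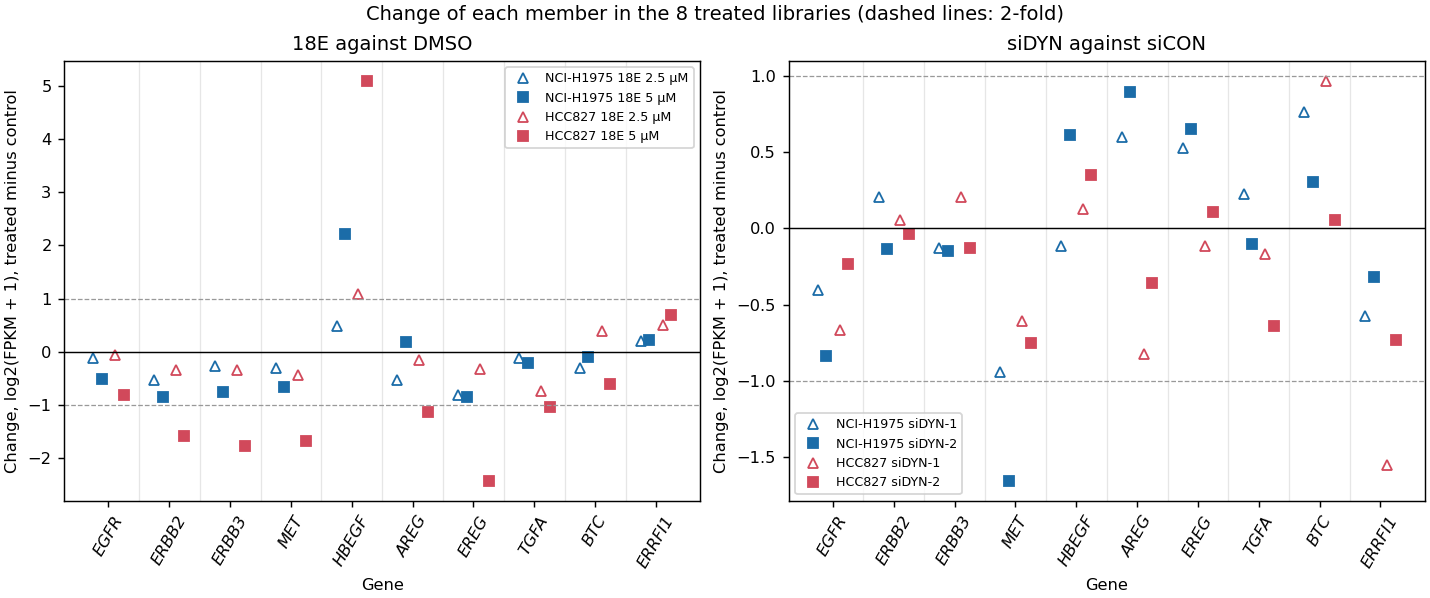
Change in log2(FPKM + 1) of each member against the control library of its own line, for 18E against DMSO (left) and siDYN against siCON (right), with 1 point per treated library and dashed lines at 2-fold. At 5 µM HBEGF reaches 5.09 for HCC827 and 2.21 for NCI-H1975, whereas EGFR, ERBB2, ERBB3, EREG, TGFA and MET lie below 0 in all 4 18E libraries.

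HBEGF had the largest change of the 10. NCI-H1975 had 2.32 FPKM with DMSO, 3.66 FPKM at 2.5 µM and 14.35 FPKM at 5 µM. In HCC827 the levels were 1.56, 4.46 and 86.1 FPKM. Every 18E library was thus above both DMSO libraries, and the gene went from the least abundant member in HCC827 to a level in the 5 µM library that only EGFR and ERRFI1 exceeded. The FPKM ratio to DMSO at 5 µM was 6.19 in NCI-H1975 and 55.2 in HCC827. The fitted change was 3.65 ± 0.66 at 5 µM (adjusted p = 0.1) and 0.79 ± 0.66 at 2.5 µM (adjusted p = 0.924). Between 2.5 and 5 µM the step was 2.86 ± 0.66 (adjusted p = 0.411), and 0 of all genes passed. It passed without NCI-H1975 DMSO (2.86), without HCC827 DMSO (2.86) and without NCI-H1975 5 µM (4.15), in fits where 37, 36 and 3478 genes passed. The difference between the lines in the 18E change, both doses pooled, was -1.74 ± 2.34 (NCI-H1975 minus HCC827) and did not pass. Without any one of 5 libraries HBEGF passed at 5 µM: the adjusted p was 0.00238 without NCI-H1975 DMSO, 0.0238 without NCI-H1975 2.5 µM, 0.000339 without NCI-H1975 5 µM, 0.02 without HCC827 2.5 µM and 0.0132 without HCC827 5 µM. Without HCC827 DMSO it did not. Over all genes 379, 80, 4520, 99 and 230 passed in those 5 fits, so HBEGF was 1 of many. A group left with 1 library is assumed there to vary like the other groups.

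EREG was lower instead. Its level in NCI-H1975 was 6.98 FPKM under DMSO, then 3.54 and 3.42 FPKM at the lower and upper dose. HCC827 had 134.24, 107.97 and 24.32 FPKM. Both lines were lowest at 5 µM, but NCI-H1975 had already reached that level at 2.5 µM. The fitted change was -1.63 ± 0.48 at 5 µM (adjusted p = 0.125) and -0.56 ± 0.48 at 2.5 µM. AREG, the next gene on the chromosome, had 20.62, 13.95 and 23.64 FPKM in NCI-H1975, with the 5 µM library the highest. In HCC827 it had 180.29, 163.07 and 81.45 FPKM, with that library the lowest. Its fitted change was -0.47 ± 0.40 at 5 µM (adjusted p = 0.467), and it was 0.29 without the HCC827 5 µM library. The difference between lines of its 18E change did not pass either (0.47 ± 0.71).

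TGFA had 9.75, 8.98 and 8.34 FPKM in NCI-H1975, while HCC827 had 34.66, 20.4 and 16.51 FPKM (DMSO, 2.5 µM, 5 µM). It was lower at each dose in both lines, by little in NCI-H1975 (fitted change at 5 µM -0.61 ± 0.24, adjusted p = 0.177). BTC had 1.13, 0.73 and 0.99 FPKM in NCI-H1975, while HCC827 had 8.12, 11.05 and 5.01 FPKM. It followed no dose order in either line. Its fitted change at 5 µM was -0.35 ± 0.30 (adjusted p = 0.475), and 0.08 without the HCC827 5 µM library.

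Among the receptors, EGFR had 25.35, 23.34 and 17.53 FPKM in NCI-H1975 with DMSO, 2.5 and 5 µM. In HCC827 it had 615.58, 595.06 and 351.99 FPKM. The 2.5 µM library lay close to DMSO in both lines, and most of the difference came with the upper dose. The fitted change was -0.08 ± 0.16 at 2.5 µM and -0.66 ± 0.16 at 5 µM (adjusted p = 0.106). Bulk RNA cannot tell less EGFR mRNA per cell from a smaller share of cells that carry it.

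ERBB2 had 30.34, 20.67 and 16.36 FPKM in NCI-H1975, while HCC827 had 45.23, 35.46 and 14.57 FPKM. ERBB3 had 20.96, 17.23 and 12.12 FPKM in NCI-H1975, while HCC827 had 25.36, 19.97 and 6.72 FPKM. Both partners were lower at each dose in each line, and at 5 µM the HCC827 level was under that of NCI-H1975. The fitted changes at 5 µM were -1.21 ± 0.25 for ERBB2 (adjusted p = 0.104) and -1.26 ± 0.29 for ERBB3 (adjusted p = 0.104). Over the 8 treated libraries of both experiments these were the closest pair of members, with a Euclidean distance of 0.51 between their changes. MET had 87.17, 70.6 and 55.21 FPKM in NCI-H1975, while HCC827 had 233.9, 173.99 and 72.95 FPKM, again lower at each dose. Its fitted change at 5 µM was -1.16 ± 0.27 (adjusted p = 0.105), and -1.44 (adjusted p = 0.0415) without the NCI-H1975 DMSO library, where it was 1 of 379 genes that passed.

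The inhibitor ERRFI1 was higher at each dose. It had 72.55, 83.66 and 84.98 FPKM in NCI-H1975, while HCC827 had 116.43, 164.98 and 187.92 FPKM. Its fitted change was 0.35 ± 0.17 at 2.5 µM and 0.46 ± 0.17 at 5 µM (adjusted p = 0.164). Without the NCI-H1975 5 µM library, which leaves HCC827 as the only line at that dose, 4520 genes passed at 5 µM. Among them were 7 members that were lower (EGFR, ERBB2, ERBB3, AREG, EREG, TGFA and MET), against 22.3% of all genes, and HBEGF and ERRFI1, which were higher, against 15.5%. The spread in that fit comes from the other groups, since the 5 µM group is then 1 library.

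Single libraries, 1 against 1 and with no test, show where the size lay. In HCC827 at 5 µM, 6 members were at least 2-fold lower on the log2(FPKM + 1) scale (ERBB2, ERBB3, AREG, EREG, TGFA and MET), against 7.24% of all genes. HBEGF was at least 2-fold higher there, against 7.40%. In NCI-H1975 at 5 µM no member was 2-fold lower on that scale, against 1.13% of genes, although EREG stood at 49.0% of its DMSO level in FPKM. In the same library HBEGF was 2-fold higher, against 1.78%. At 2.5 µM HBEGF in HCC827 was the only member past 2-fold in either line, against 1.24% of genes higher in that library.

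At 2.5 µM limma called 0 of 11953 genes (0%) and none of the members, with 629 genes (5.26%) and 0 members at an unadjusted p under 0.05. The same 2 members, HBEGF and ERRFI1, were higher in both lines, against 32.2% of genes. There were 7 lower in both (EGFR, ERBB2, ERBB3, AREG, EREG, TGFA and MET), against 31.6%. BTC was lower in NCI-H1975 and higher in HCC827. The step from 2.5 to 5 µM also gave 0 calls (0%), with 1405 of 11953 genes at an unadjusted limma p under 0.05. Among these were 1 member that was higher (HBEGF) and 4 that were lower (EGFR, ERBB2, ERBB3 and MET). The difference between lines of the 18E change gave 0 calls (0%), with 205 genes and 0 members at an unadjusted limma p under 0.05.

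**Figure D3:**
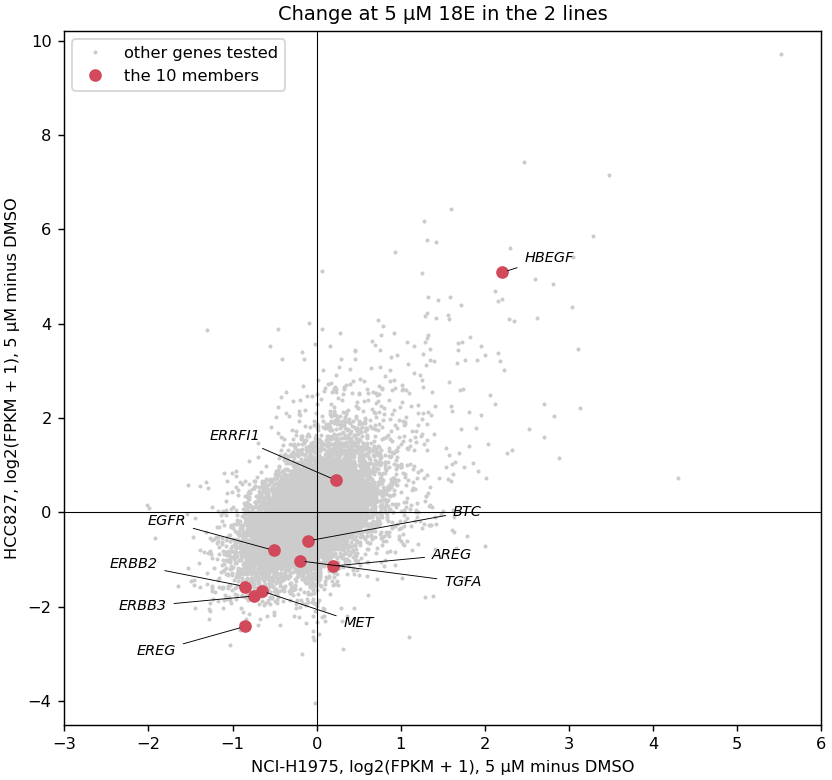
Change in log2(FPKM + 1) at 5 µM 18E against DMSO in NCI-H1975 (horizontal) and HCC827 (vertical), with 1 point per gene tested, grey for the other genes and red for the 10 members. HBEGF lies at 2.21 and 5.09, EREG at -0.85 and -2.42, and AREG at 0.19 and -1.14.

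The mix of ligand transcripts differed with dose. In HCC827 the 5 ligands summed to 358.87 FPKM under DMSO, then to 306.95 and 213.39 FPKM at the lower and upper dose. HBEGF made up 0.435%, 1.45% and 40.3% of these sums, and EREG 37.4%, 35.2% and 11.4%. In NCI-H1975 the sums were 40.8, 30.86 and 50.74 FPKM, with HBEGF at 5.69%, 11.9% and 28.3% and EREG at 17.1%, 11.5% and 6.74%. At 5 µM only AREG had a larger share than HBEGF in NCI-H1975, and in HCC827 no ligand did. AREG held 38.2% to 53.1% of the sum in all 6 libraries of the 18E table. These shares are descriptions of 1 library each.

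**Figure D4:**
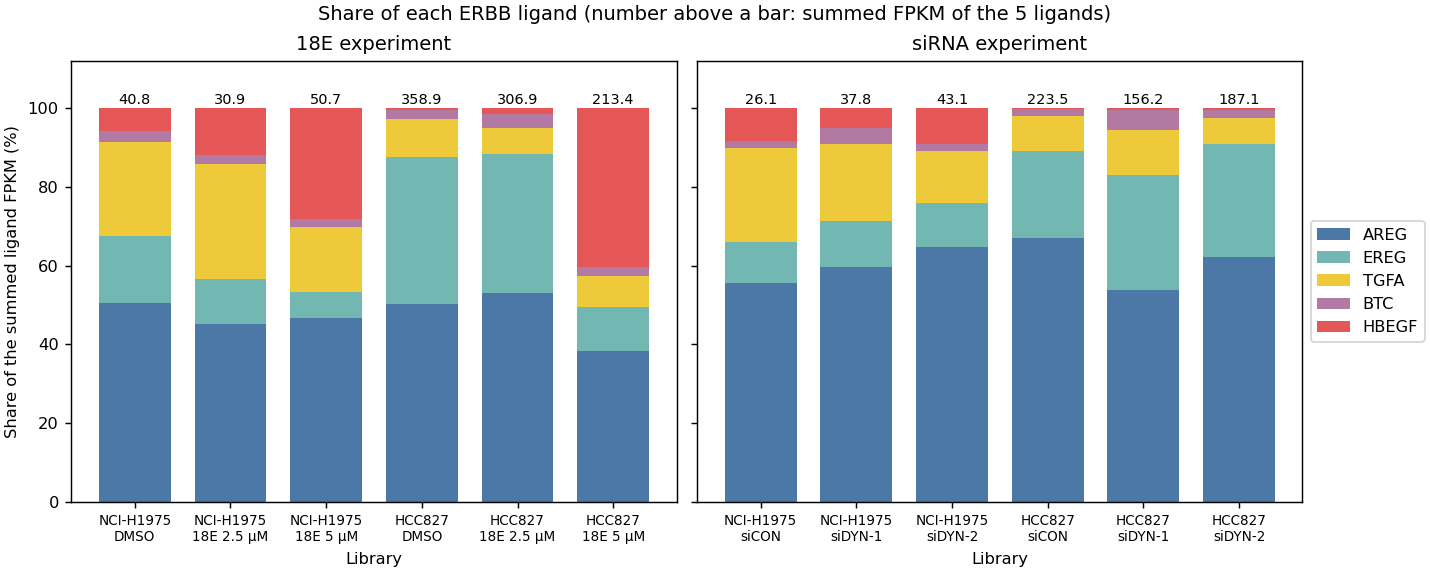
Share of each ligand in the summed FPKM of the 5 ligands, in percent, for each library of the 18E experiment (left) and the siRNA experiment (right), with the sum in FPKM above each bar. The HBEGF share is 28.3% in NCI-H1975 and 40.3% in HCC827 at 5 µM, and at most 8.96% in all libraries of the siRNA experiment.

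With siDYN, the receptors EGFR and MET and the inhibitor ERRFI1 were lower in all 4 libraries, and ERBB2 and ERBB3 stayed near siCON. AREG was above siCON in NCI-H1975 and below it in HCC827. EREG was above siCON in NCI-H1975 and on both sides of it in HCC827. Neither line difference passed the adjusted test. Limma called 0 of 11718 genes (0%) and 0 members, with 3042 genes at an unadjusted p under 0.05. By that unadjusted rule 3 members were lower (EGFR, MET and ERRFI1), against 13.4% of all genes. These 3 were also the members lower in every siDYN library, against 25.6% of genes. BTC alone was higher in every one, against 24.9%. The members' median fitted change was -0.01, beside 0.01 for all genes.

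MET in NCI-H1975 had 41.03 FPKM under siCON, then 20.88 FPKM under siDYN-1 and 12.35 FPKM under siDYN-2. In HCC827 it had 96.51, 63.04 and 56.83 FPKM. All 4 treated libraries were below their siCON, and siDYN-2 in NCI-H1975 was the only one past 2-fold, against 4.05% of genes lower in that library. The fitted change was -0.99 ± 0.24 (adjusted p = 0.101). With siDYN-2 alone it was -1.20 and passed (adjusted p = 0.0234), in a fit where 2124 genes passed, while with siDYN-1 alone it did not.

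EGFR had 13.6, 10.03 and 7.17 FPKM in NCI-H1975 with siCON, siDYN-1 and siDYN-2. HCC827 had 221.5, 139.29 and 187.95 FPKM. The siRNA with the lower level was siDYN-2 in NCI-H1975 and siDYN-1 in HCC827. The fitted change was -0.54 ± 0.19 (adjusted p = 0.148). ERRFI1 had 64.11, 42.78 and 51.11 FPKM in NCI-H1975, while HCC827 had 115.51, 38.82 and 69.2 FPKM, with siDYN-1 the lower in both lines. Its HCC827 siDYN-1 library was past 2-fold lower, against 0.734% of genes in that library. The fitted change of ERRFI1 was -0.79 ± 0.27 (adjusted p = 0.138).

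ERBB2 had 20.72, 24.01 and 18.78 FPKM in NCI-H1975, while HCC827 had 25.98, 27.07 and 25.26 FPKM, a fitted change of 0.02 ± 0.15. Its sign was negative under equal FPKM totals and under quantile normalization. ERBB3 had 15.4, 13.98 and 13.82 FPKM in NCI-H1975, while HCC827 had 11.5, 13.43 and 10.45 FPKM, a fitted change of -0.05 ± 0.15. For both partners the treated levels lay on both sides of siCON in at least 1 line.

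The ligands did not share a direction. AREG had 14.53, 22.58 and 27.83 FPKM in NCI-H1975, with both siDYN libraries above siCON. In HCC827 it had 149.65, 84.12 and 116.35 FPKM, with both below. The pooled fitted change was 0.08 ± 0.31 (adjusted p = 0.891), turning to -0.03 with equal FPKM totals and to -0.02 with quantile normalization, and the difference between the lines was 1.34 ± 0.40 without passing (adjusted p = 1.00). EREG had 2.72, 4.36 and 4.84 FPKM in NCI-H1975, while HCC827 had 49.72, 45.74 and 53.54 FPKM, a fitted change of 0.29 ± 0.18. The difference between the lines in the EREG change was 0.60 ± 0.32 and did not pass either. The difference between lines of the siDYN change gave 0 calls (0%) over all genes, with 178 of 11718 at an unadjusted limma p under 0.05, AREG among them.

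HBEGF, the ligand with the largest change at 5 µM 18E, stayed low with siDYN. It had 2.18, 1.93 and 3.86 FPKM in NCI-H1975, while HCC827 had 0.53, 0.67 and 0.95 FPKM, a fitted change of 0.24 ± 0.22. BTC had 0.46, 1.48 and 0.8 FPKM in NCI-H1975, while HCC827 had 3.59, 7.97 and 3.78 FPKM, highest with siDYN-1 in both lines (0.52 ± 0.27, adjusted p = 0.267). TGFA had 6.24, 7.48 and 5.75 FPKM in NCI-H1975, while HCC827 had 19.97, 17.69 and 12.45 FPKM (-0.17 ± 0.21). The siCON libraries serve both siRNAs of a line, and the DMSO libraries both doses.

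**Figure D5:**
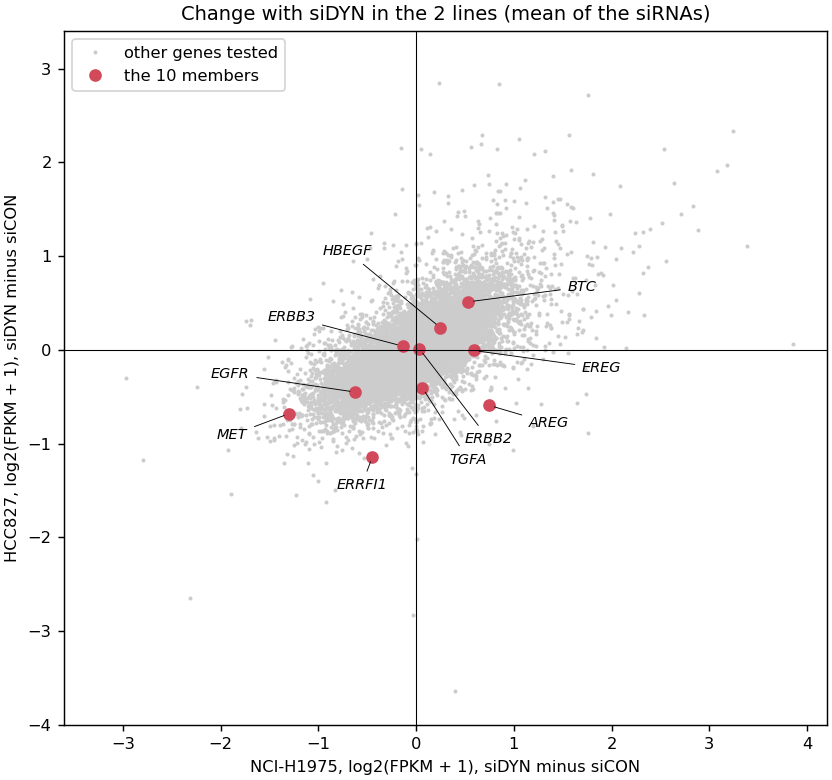
Change in log2(FPKM + 1) with siDYN against siCON, as the mean of siDYN-1 and siDYN-2, in NCI-H1975 (horizontal) and HCC827 (vertical), with 1 point per gene tested and the 10 members in red. MET (-1.30 and -0.68), EGFR (-0.62 and -0.45) and ERRFI1 (-0.45 and -1.14) lie below 0 in both lines, and AREG lies at 0.75 and -0.59.

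The rest of the pathway was read from 9 lists. None of their genes passed limma's adjusted test at 2.5 µM, at 5 µM or with siDYN, so the lists are described by their medians. At an unadjusted p under 0.05, 27 of their 103 tested genes were lower and 5 higher at 5 µM, against 16.8% and 10.0% of all genes. At 2.5 µM 6 were lower and 2 higher, against 2.01% and 3.25%. With siDYN 25 of 100 were lower and 6 higher, against 13.4% and 12.6%. Of the remaining family genes only NRG1, a neuregulin that binds ERBB3, passed the filter on low values (1 of 7), with -0.13 ± 0.22 at 5 µM. Among 7 tested genes of ligand shedding the median at 5 µM was -0.19. ADAM10, a sheddase of EGF-like ligands, stood at 22.58 FPKM with DMSO and 14.19 at 5 µM in NCI-H1975, and at 33.6 and 14.57 FPKM in HCC827 (-0.89 ± 0.25). ADAM9, a related protease, had -0.72 ± 0.14 at 5 µM and -1.07 ± 0.30 with siDYN. ADAM17, on the same list, went the other way at 5 µM (0.41 ± 0.18) and had -0.34 ± 0.13 with siDYN. Of the 7 shedding genes, 2 were positive and 5 negative at 5 µM.

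Downstream of the receptors at 5 µM, the median was -0.50 over 12 PI3K and AKT genes, -0.31 over 12 adaptors, -0.29 over 13 genes of RAS, RAF, MEK and ERK and -0.58 over 5 genes of the MET axis. All genes had a median of -0.09. AKT2, a kinase activated through PI3K, stood at 24.78 and 13.23 FPKM in NCI-H1975 and at 45.41 and 24.31 FPKM in HCC827 with DMSO and 5 µM (-0.87 ± 0.16). PIK3R2, a regulatory subunit of PI3K, had -0.97 ± 0.23. PIK3CD, on the same list, went the other way (0.65 ± 0.22), and of the 12 genes 2 were positive and 10 negative. PTPN11 (SHP2), a phosphatase that couples the receptors to RAS, had -0.76 ± 0.17, and GRB7, an adaptor encoded beside ERBB2, -0.50 ± 0.20. RASA1, which turns RAS off, had -1.05 ± 0.17, and KSR1, a scaffold of RAF and MEK, -0.66 ± 0.19. MST1R (RON), the relative of MET, had -1.09 ± 0.31, and ST14 (matriptase), a membrane protease that can activate the MET ligand, -0.82 ± 0.25.

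The 13 genes of MAPK feedback and output had a median of 0.13 at 5 µM, with 8 positive and 5 negative. DUSP5, a nuclear phosphatase of ERK, had 27.37 FPKM under DMSO and 51.0 at 5 µM in NCI-H1975, against 23.2 and 194.62 FPKM for HCC827 (1.94 ± 0.52, adjusted p = 0.117). EGR1, an immediate early transcription factor, had 17.67 and 22.48 FPKM, against 5.31 and 37.52 FPKM (1.47 ± 0.51, adjusted p = 0.153). SPRY1 went the other way and was the most negative of the 13 (-1.35 ± 0.22). Of 19 ubiquitin ligases and brakes, 11 were positive and 8 negative (median 0.10), and SOCS3, an inhibitor of cytokine receptor signalling, had 1.15 ± 0.51 while PTPRJ, a receptor phosphatase, had -0.71 ± 0.28. Over 21 endocytosis and sorting genes the median was -0.05, with AP2B1, a subunit of the clathrin adaptor, at -0.66 ± 0.15 and STAM, a sorting protein of endosomes, at 0.61 ± 0.26.

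With siDYN the median was -0.35 over 17 ubiquitin ligases and brakes (3 positive, 14 negative), beside 0.01 for all genes. Over 11 adaptors it was -0.32 (2 positive, 9 negative). SOCS5, which promotes EGFR degradation, had -0.83 ± 0.27, PTPN11 -0.59 ± 0.17 and RASA1 -0.94 ± 0.25. CLTC, the clathrin heavy chain, had -0.61 ± 0.14, but EPN1, on the same endocytosis and sorting list, had 0.53 ± 0.15. On that list 7 genes were positive and 14 negative (median -0.12). PIK3CB, a catalytic subunit of PI3K, had -0.87 ± 0.21, while its PI3K and AKT list had 6 genes positive and 6 negative (median -0.06). IER3, an ERK-induced early response gene, was the MAPK output gene with the largest change (1.00 ± 0.21, adjusted p = 0.0981). SPRY1 was the most negative of that list (-0.76 ± 0.15), in which 8 genes were positive and 5 negative. NRG1 had -0.06 ± 0.14 and ST14 0.23 ± 0.15. The epithelial markers had a median of -0.21 with siDYN (6 of 6 negative) and of -0.26 at 5 µM 18E (5 of 6 negative), and their part in the members' values was not tested.

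Genes with the pattern most like 4 of the members were sought by Euclidean distance over the 8 changes, among 11449 genes tested in both tables. For EGFR the nearest were SPG11 (0.34), VCL, which encodes the adhesion protein vinculin (0.36), and DYNC1H1, the dynein heavy chain (0.39). For HBEGF they were ZFAND2A, a stress-inducible zinc finger gene (0.55), ID2, an inhibitor of helix-loop-helix factors (1.07), and HSPA1B (1.12), an inducible HSP70 whose values are uncertain because HSPA1A is nearly identical. ZFAND2A had changes of 2.60 in NCI-H1975 and 4.95 in HCC827 at 5 µM, next to 2.21 and 5.09 for HBEGF. EREG was nearest to PCDH7, a protocadherin gene (0.98), CYP24A1, which inactivates vitamin D (1.07), and LPCAT1, an enzyme of phospholipid synthesis (1.15). AREG was nearest to STBD1 (0.96), which encodes a glycogen-binding protein, CRIP2 (0.96) and DOK4 (1.00). Neither had a neighbour as close as those of EGFR. The distance was not scaled by the size of the changes, which reached -2.42 for EREG, -1.14 for AREG and -0.84 for EGFR.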

How the data were processed

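Total RNA was extracted with Trizol and sequenced from Illumina TruSeq libraries, per the labels. The authors deposited the expression of each gene as FPKM with 2 decimals, per the file headers, and each experiment has a table of its own. Bowtie 0.12.2 and the builds GRCh38.p12 and mm8, a mouse build, are named without a role, per the submitters' processing notes. Which tool gave FPKM, and whether strand was used, is not given in the sources used here. Lines without a complete gene were left out, which kept 16760 of 16800 lines for 18E and 17442 of 17462 for the siRNAs. Every column of values was matched to a library by name. No reads could be counted from FPKM, so depth is unknown.

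Values were taken as log2(FPKM + 1). Genes reaching 1 FPKM in 2 or more of 6 libraries were fitted with limma 3.58.1 (R 4.3.3), using a trended prior variance, the line as a block, two-sided tests and Benjamini-Hochberg adjustment over all genes tested. Residual degrees of freedom were 2 for 18E, 3 for siDYN and 2 for the difference between lines, where the doses or siRNAs act as replicates. The script was tested on simulated data. The tables were fitted apart. Members, gene lists, the motifs searched and the naming rule were chosen with earlier results of these data known. Named were all members, from each list the 2 genes with the largest change at 5 µM and the 1 with siDYN, and the 3 genes nearest to each of EGFR, AREG, EREG and HBEGF. ADAM17, SPRY1, PIK3CD and EPN1 were added to these after their values were seen. Alternatives were a pseudocount of 0.1, no filter, equal FPKM totals, quantile normalization, no trend, no line term, single siRNAs and each library left out. The line was the block because each treated library has the control of its own line, and the labels do not say that their cultures were otherwise matched.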

Additional observations from a re-analysis of the deposited data

Results flagged for a closer look

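AREG with siDYN differed in direction between the lines. Both siDYN libraries of NCI-H1975 were above siCON, with changes of 0.60 and 0.89 on the log2(FPKM + 1) scale. Both of HCC827 were below, with changes of -0.82 and -0.36. The difference of the line changes was 1.34 ± 0.40 (SE, NCI-H1975 minus HCC827) in limma and did not pass after adjustment over all genes (adjusted p = 1.00). Across leaving out each siDYN library it ran from 1.11 to 1.57.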

How the results depend on the processing

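With 1 library per line and treatment, small residual degrees of freedom and no read counts, a member that missed the threshold is not shown to be unaltered. At 5 µM, 16 genes passed with a pseudocount of 0.1, and 0 without a filter, with equal FPKM totals, with quantile normalization, without the trend and without the line block. The siDYN count was 82 for siDYN-1 alone and 2124 for siDYN-2 alone, and that of the difference between lines with siDYN was 1 with a pseudocount of 0.1. No member passed or lost the threshold under these alternatives, other than MET with siDYN-2 alone. Equal FPKM totals moved the median line difference of all genes in the 18E table from 0.10 to -0.01.

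Signs turned for BTC at 2.5 µM with a pseudocount of 0.1 (-0.064), ERBB3 between lines in the 18E table with equal totals (-0.024), and, with siDYN, ERBB2 with equal totals, quantile normalization and siDYN-2 alone (-0.090, -0.021 and -0.087). They also turned for AREG with siDYN under equal totals, quantile normalization and siDYN-1 alone (-0.035, -0.019 and -0.11), and with siDYN-1 alone for ERBB3 (0.038) and TGFA (0.031). Members past 2-fold numbered 2 in NCI-H1975 at 5 µM (HBEGF and EREG), 1 in NCI-H1975 siDYN-1 (BTC) and 2 in HCC827 siDYN-1 (BTC and ERRFI1) with a pseudocount of 0.1. They numbered 1 in NCI-H1975 siDYN-1 with equal totals and 3 in HCC827 siDYN-1 with quantile normalization (AREG, BTC and ERRFI1).

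Leaving out each library in turn gave 34 to 4520 genes at 5 µM, 0 to 26 at 2.5 µM and 0 to 3478 for the dose step. It gave 3573 to 7420 between lines in the 18E table, 3403 to 4863 in the siRNA table and 0 to 128 with siDYN. The highest counts came without NCI-H1975 5 µM for 5 µM and for the dose step, and without HCC827 siDYN-1 for siDYN. Fitted changes at 5 µM then ran from -1.23 to 0.29 for AREG and from -0.78 to 0.077 for BTC. At 2.5 µM they ran from -0.19 to 0.025 for EGFR, -0.080 to 1.66 for HBEGF, -0.86 to 0.19 for AREG, -1.20 to 0.080 for EREG and -0.43 to 0.53 for BTC. With siDYN they ran from -0.053 to 0.092 for ERBB2, -0.14 to 0.040 for ERBB3, -0.59 to 0.75 for AREG, -0.0066 to 0.59 for EREG and -0.40 to 0.063 for TGFA. Between lines in the 18E table they ran from -0.23 to 0.28 for ERBB3 and -1.37 to 0.073 for HBEGF, and the line difference of the HBEGF change with 18E from -3.74 to 0.26. The difference between lines could not be fitted without a control library. Signs turned without NCI-H1975 2.5 µM for EGFR, AREG and EREG at 2.5 µM, without HCC827 2.5 µM for BTC and without HCC827 DMSO for HBEGF. They turned without HCC827 5 µM for AREG and BTC at 5 µM, and without the 5 µM library of either line for ERBB3 and HBEGF between lines; without HCC827 5 µM the line difference of the HBEGF change turned too. With siDYN they turned without NCI-H1975 siCON for ERBB3, AREG and EREG, without NCI-H1975 siDYN-1 for ERBB2, without NCI-H1975 siDYN-2 for AREG, without HCC827 siCON for TGFA and without HCC827 siDYN-2 for ERBB3. The cause was not tested.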

Other observations

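The balance of receptor transcripts differed by line and treatment. In HCC827 the ratio of EGFR to ERBB2 FPKM was 13.6 under DMSO, 16.8 at the lower dose and 24.2 at the upper dose, and that of EGFR to ERBB3 was 24.3, 29.8 and 52.4. NCI-H1975 had EGFR to ERBB2 ratios of 0.836, 1.13 and 1.07. With siDYN the ratio was on the other side of its control. HCC827 had 8.53 under siCON, then 5.15 and 7.44 under the siDYN siRNAs, and NCI-H1975 had 0.656, then 0.418 and 0.382. The ratio of EREG to AREG, neighbours on chromosome 4, was lower at each 18E dose in both lines. It was 0.339, 0.254 and 0.145 for NCI-H1975, against 0.745, 0.662 and 0.299 for HCC827. These ratios come from 1 library each and have no test.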
